A study of Mus musculus with 4 samples.

Results

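The distal Trav array examined here is an 800 kb stretch of mouse chromosome 14 (mm9, chr14:53000001-53800000), taken as all HindIII fragments with their midpoint in it that had a value in any of 16 4C-seq libraries. It held 255 such fragments, of 26314 on chromosome 14 and 506753 in the genome. 4C-seq (circular chromosome conformation capture with sequencing) ligates and sequences the restriction fragments that lie close, in the crosslinked nucleus, to a chosen fragment, the viewpoint. The study compared CD4- CD8- thymocytes (DN) of C57BL/6 Rag2-/- mice, from litters 3 weeks old, with naive B cells of C57BL/6 wild-type spleen (B). There were 2 samples of either cell type, with libraries from 4 viewpoints (TEA, INT1, INT2 and Ed, the last being the label's E-delta) for each. Thymocytes of several littermates may have been pooled in a sample, the age and isolation of the B cells are not given in the sources used here, and cell type, tissue and Rag2 genotype differ together between the groups and cannot be told apart. The labels do not say that the 2 samples of a group came from separate animals, so p-values measure only the spread between these samples.

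The Tcra-Tcrd locus encodes the alpha and delta chains of the T cell receptor. Its variable (Trav) gene segments form a long array, and the Trav region in mice grew by duplication of large cassettes, so that many segments have near-identical relatives. A rearranging thymocyte joins a Trav segment to a joining (Traj) segment far downstream, which requires the ends of the locus to meet, whereas B cells rearrange immunoglobulin genes and leave this locus unrearranged. Rag2-/- thymocytes lack the recombinase and keep the locus in its germline order. TEA is the promoter element upstream of the Traj segments, Ed is the Tcrd enhancer, and INT1 and INT2 lie in the intergenic DNA between the Trav and Trdd segments.

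All 4 viewpoint fragments lay above the array on the chromosome. INT1 (chr14:54677060-54677623) was 0.877 Mb from its upper edge and 1.68 Mb from its lower edge. INT2 (chr14:54680988-54683873) lay next to it, and Ed (chr14:54763263-54765182) and TEA (chr14:54769627-54773311) were farther away, TEA at 0.971 to 1.77 Mb. The array is called distal because it is the Trav stretch farther from these viewpoints; the stretch between it and INT1, 53.80 to 54.66 Mb with 270 listed fragments, is called the proximal Trav span. The name rests on these coordinates, since positions of Trav genes on mm9 were not used here. In RefSeq's later build, GRCm38.p6, 130 Trav genes were listed on the chromosome, of which 40 carried the suffix d and 34 the suffix n, each set in a single block, and all 34 n genes had a d gene of the same number.

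Chromosome 14 received between 169129 and 2851909 reads per library, leaving out the viewpoint fragment and its nearest neighbour on either side. Of those reads, the density seen on other autosomes would account for 12.9% to 30.1% in the DN libraries and for 53.3% to 71.5% in the B libraries. The array's own counts ranged from 2771 reads (Ed, B sample 1) to 125254 reads (TEA, DN sample 2), and a fragment without a read had a share of at most 0.000105% to 0.00177% of chromosome 14, the limit set by 3 reads. Intervals and limits from reads cover counting error only, since the reads are PCR copies without molecular identifiers. Each DN sample came in a sequencing folder of its own per the file headers, and the B samples shared another, so folder and cell type cannot be told apart.

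A large share of the array's signal sat on fragments whose values recurred at another position. Of the 196 fragments captured in 3 or more libraries, 82 (41.8%) had a value identical, in all 16 libraries, to that of another chromosome 14 fragment within 1 Mb. Over chromosome 14 the same held for 5.99% of 9255 fragments, the median 800 kb window had 0%, and 7 of 153 windows had a higher share than the array. The other 59 fragments of the array were captured too rarely for this comparison. For 32 of the 82 the identical fragment lay in the array itself, and for 50 in the proximal span. Among the 50, 6 had a further identical fragment there.

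The copies lay at regular distances. Of 88 pairings, 55 lay 303.4 to 311.2 kb towards the viewpoints (median 311.0 kb), 15 were the same pairs seen from the upper partner, and 16 lay 691.3 to 706.7 kb towards the viewpoints (median 695.9 kb). The remaining 2 were a pair of fragments 3.45 kb apart, captured in 3 libraries each. In 62 of the 88 the partners also had the same length within 10 bp. The longest uninterrupted set ran from 53498416 to 53608728 and matched 53809376 to 53919897 in the proximal span; in the window 53.50 to 53.60 Mb all 26 listed fragments had an identical partner there. A second set, 53454812 to 53486186, matched 53765872 to 53797144, so that both of its copies were in the array and its value entered the array's total at each. Whether the same reads were counted at each copy was not tested. Contact levels, both within-library ratios, the 100 kb windows and the captured fragments were therefore also computed with the identical fragments left out, for levels and windows from the chromosome total as well.

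**Figure D1:**
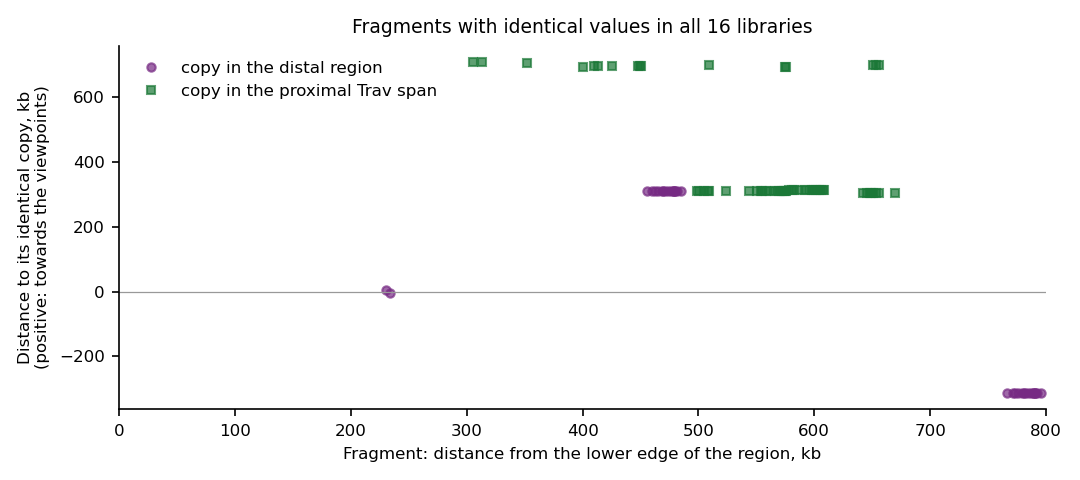
Distance from each fragment of the distal Trav array to the fragment with identical values in all 16 libraries (vertical axis, kb) against the fragment's place in the array (horizontal axis, kb from the lower edge). Circles are copies in the array and squares copies in the proximal Trav span; most points lie in bands near 311 kb and 695.9 kb, and nearly all belong to the upper 400 kb.

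The restriction map also showed repeats, without any use of read values. Neighbouring listed fragments were 6 bp apart, the length of the HindIII site, so their lengths form a map. Runs of 3 or more consecutive fragments whose lengths recurred within 10 bp elsewhere in the Trav stretch numbered 14 and took in 69 of the 255 fragments (27.1%), 66 of them in the upper 400 kb. In 9 of the 14 runs the copy lay 304.2 to 311.2 kb away. Of the 42 fragment pairs in those 9 runs, 40 had equal values in all 16 libraries. Pairs of the remaining runs were not counted. Of these, the run from 53319515 to 53323719, with its copy 706.7 kb away, held 3 fragments, none counted as having an identical copy. Such runs occurred in 13 of 153 windows of 800 kb, and 1 of them held more fragments in such runs than the array. Listed fragments covered 93.0% of the array, against a median of 79.5% per window and 99.2% of the proximal span, and no other window had as many listed fragments. The uncovered 52.4 kb fell into 33 stretches, of which 13 exceeded 1 kb and 1 exceeded 10 kb (chr14:53085096-53096116, 11.0 kb). Whether those stretches lacked reads or lacked reads that could be aligned was not tested.

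As a share of chromosome 14 reads, the array was contacted more in DN thymocytes than in B cells from every viewpoint. From TEA it took 3.25% and 4.39% of the chromosome 14 reads in the DN samples, compared with 1.07% and 1.58% in the B samples. From INT1 the DN shares were 3.31% and 4.20% and the B shares 0.994% and 1.25%. From INT2 they were 2.49% and 3.87% (DN) compared with 1.05% and 1.17% (B). The groups did not overlap from any of these viewpoints. From Ed, the enhancer, the array took 1.97% and 2.15% in DN against 0.875% and 0.885% in B, the lowest DN shares of the 4 viewpoints, again without overlap. Over all windows of this size, both DN values exceeded both B values in 4.58% of 153 with the Ed viewpoint, 1.31% of 153 with TEA, 1.32% of 152 with INT2 and 0.658% of 152 with INT1. The 95% binomial (Wilson) half-width of these shares was at most 0.0662 percentage points, well below the spread between samples of a group except from Ed in B.

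**Figure D2:**
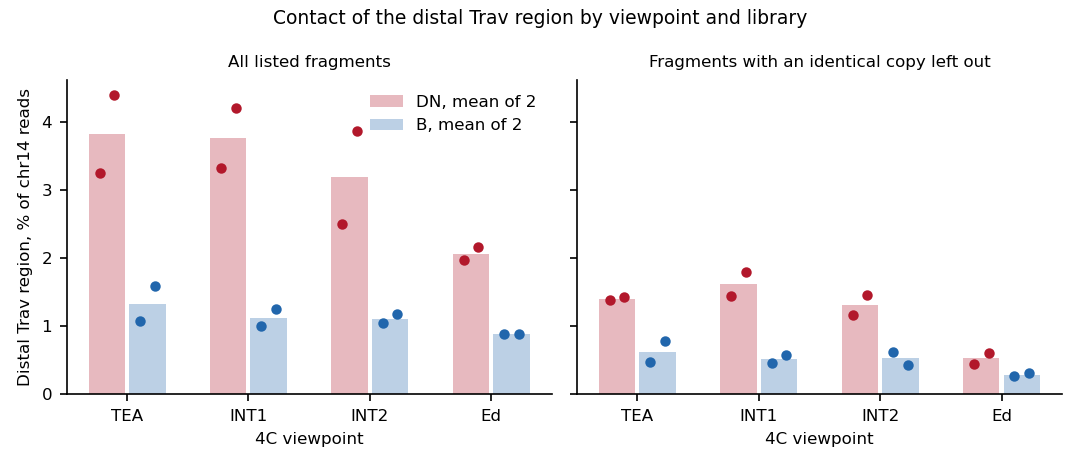
Share of chromosome 14 reads in the distal Trav array (vertical axis, percent) for each viewpoint, with all fragments (left) and without fragments that have an identical copy (right). Points are single libraries and bars the mean of 2; DN (red) lies above B (blue) from each viewpoint in both panels, and the level falls when the identical copies are left out.

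Set against the density of reads per fragment on the other autosomes, the array was 1.55-fold to 2.37-fold above that background in the 8 B libraries and 6.84-fold to 34.2-fold above it in the 8 DN libraries. In DN the fold was higher in sample 2 than in sample 1 from each viewpoint, for example 34.2 against 11.1 from TEA and 11.2 against 6.84 from Ed. The B values sat close to the background, with 2.34 as the higher from TEA and 1.69 as the higher from Ed.

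The difference was tested with limma over all 800 kb windows of chromosome 14, of which the array is 1, with Benjamini-Hochberg adjustment and n = 2 per group. With the 4 viewpoints of a sample averaged on the log2 scale, DN exceeded B by 1.50 ± 0.56 (log2, SE), a 2.82-fold difference (adjusted p = 0.0237). The array was the only window called higher in DN in that fit, 0.658% of 152, while 49.3% were called lower. The adjoining window towards the viewpoints, part of the proximal Trav span, was not among the 152, as it comes within 100 kb of INT1 and INT2. From INT1 the proximal span took 19.4% and 25.7% of chromosome 14 reads in DN against 2.94% and 3.98% in B. The chromosome total sets this scale: the median window differed by -1.53, so the array stood 3.02 above the median on the log2 scale. No single viewpoint passed: the log2 difference was 1.53 ± 0.45 from TEA (adjusted p = 0.0575), 1.74 ± 0.50 from INT1 (0.0827), 1.49 ± 0.42 from INT2 (0.0638) and 1.23 ± 0.65 from Ed (0.254). In each of these 4 fits 0% of windows were called in either direction, although 85 of 153 TEA windows had an unadjusted p under 0.05. By size of difference the array ranked 2 of 153 from TEA and 5 of 153 from Ed. It ranked 1 of 152 from INT1 and INT2, where the adjoining proximal window was not tested. The averaged call was lost when libraries were scaled to all chromosomes (log2 difference 2.81, adjusted p = 0.345), and when either B sample was left out (1.36, adjusted p = 0.548 without sample 1; 1.63, 0.531 without sample 2) but not without DN sample 1 (1.69, 2.9e-27) or 2 (1.30, 8.5e-22), fits in which the lone sample is assumed to vary like the other group. On the scale of chromosome 14 reads in excess of the background density, the difference shrank to 0.12 from TEA (adjusted p = 0.747), 0.33 from INT2 (0.325), 0.48 from Ed (0.492), 0.95 from INT1 (0.0206) and 0.47 on average (0.0830).

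With identical copies left out the array's share fell in every library, and DN stayed above B from every viewpoint. It was 1.38% and 1.42% in DN against 0.464% and 0.782% in B from TEA, and 1.44% and 1.80% against 0.455% and 0.577% from INT1. From INT2 it was 1.17% and 1.46% against 0.621% and 0.428%, and from Ed 0.443% and 0.606% against 0.262% and 0.312%. The averaged log2 difference was then 1.27 (adjusted p = 0.00245 in limma). Again the array was the only window called higher, 0.658% of 152, while 48% were called lower. The 152 left out the adjoining proximal window. From TEA the difference of 1.21 ± 0.42 passed (adjusted p = 0.0186; 1.31% of 153 windows were called higher and 44.4% lower), and from INT1 (1.65, adjusted p = 0.0632), INT2 (1.34, 0.0762) and Ed (0.86, 0.508) it did not. Fragments with identical copies had carried 42.6% to 78.6% of the array's signal, and over 50% in 15 of the 16 libraries.

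A span of equal width at the same distances on the other side of each viewpoint gave a ratio that does not depend on library size. The share of this mirror span was itself lower in both DN than in both B samples from each viewpoint. From TEA it was 0.602% and 0.981% in DN against 1.03% and 1.18% in B, and from INT1 0.831% and 1.58% against 2.30% and 1.90%. Differences in the ratio between DN and B thus come from both spans. In DN the array took more per Mb than this mirror span, by 5.39-fold and 4.48-fold from TEA, 3.99-fold and 2.65-fold from INT1, 2.61-fold and 3.63-fold from INT2, and 10.6-fold and 7.71-fold from Ed. The Ed ratios rest on a sparse mirror span. Its share was 0.186% and 0.279% in DN, on 13 and 36 captured fragments of 227, against 0.973% and 0.478% in B, on 32 and 25. In B the ratios were 1.05 and 1.35 from TEA, 0.433 and 0.660 from INT1, 0.583 and 0.524 from INT2, and 0.899 and 1.85 from Ed. The lowest DN ratio thus exceeded the highest B ratio from each viewpoint. With identical copies left out DN ratios ran from 1.07 to 2.26 and B ratios from 0.181 to 0.637, again without overlap from any viewpoint. Span widths were kept in full there, so the level of these ratios is not comparable with that over all fragments. Each comparison gave p = 0.333 in a two-sided exact permutation test, the smallest value that 2 against 2 samples allow.

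Compared with the proximal Trav span, the array took a smaller part in both cell types. Per Mb its level was 0.305 and 0.256 of the proximal level in DN and 0.338 and 0.387 in B from TEA, and 0.183 and 0.175 in DN against 0.362 and 0.337 in B from INT1. From INT2 the ratios were 0.211 and 0.223 in DN against 0.389 and 0.391 in B, and from Ed 0.336 and 0.203 against 0.498 and 0.304, where the groups overlapped. From TEA, INT1 and INT2 the DN ratios lay below the B ratios (two-sided exact permutation p = 0.333 each; 0.667 from Ed). The 2 levels are not independent, as 50 array fragments have values identical to those of proximal ones. Without identical copies the ratios were 0.0590 to 0.140 in DN and 0.118 to 0.249 in B, and DN lay below B from each viewpoint. The full widths of both spans were kept, although 82 array fragments and 56 proximal ones were left out. The level of these ratios is therefore not comparable with that of the ratios over all fragments. With each captured fragment counted once, however, the log2 difference of DN minus B turned positive, to 0.20 from TEA and 0.30 from INT1.

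**Figure D3:**
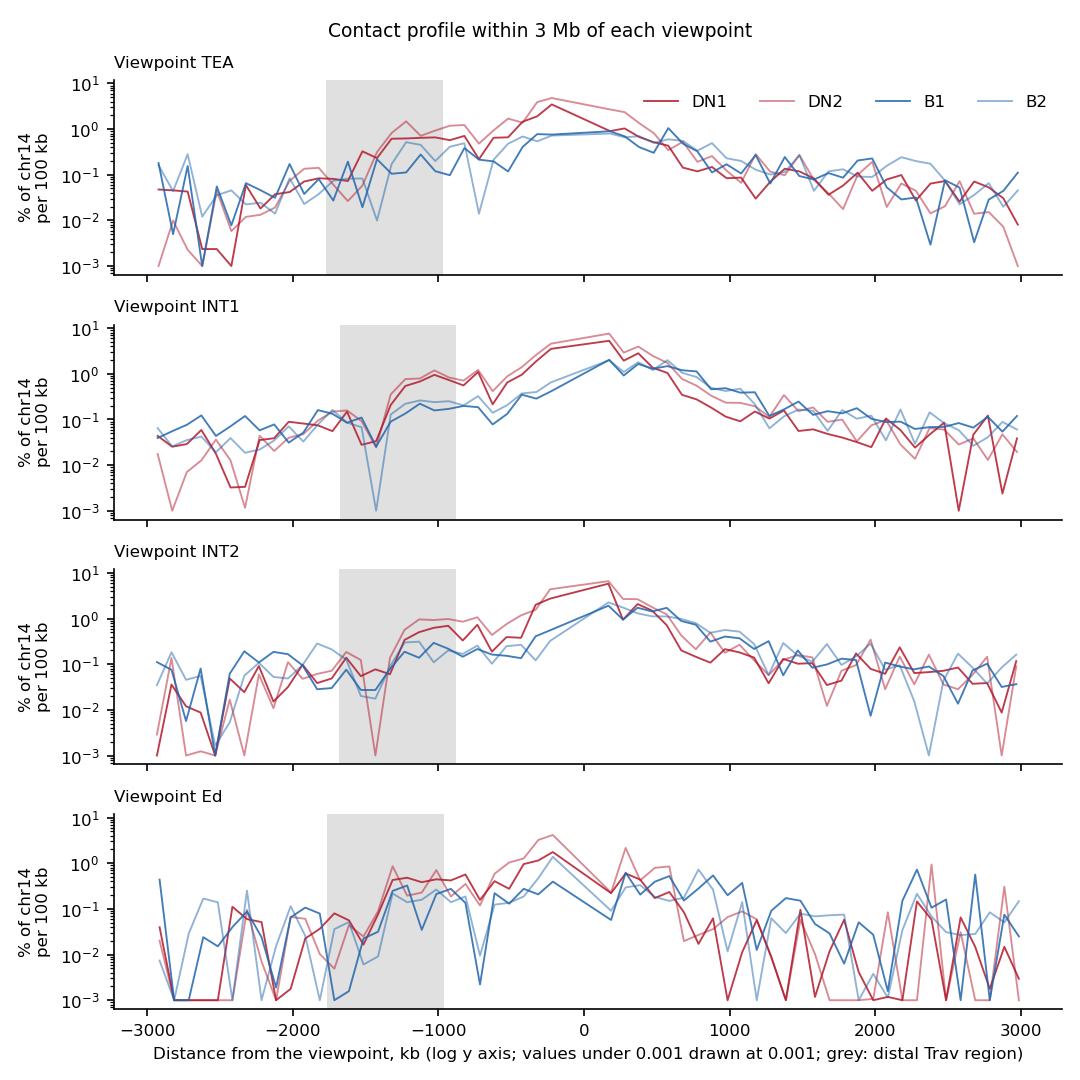
Share of chromosome 14 reads per 100 kb window (vertical axis, percent, log scale) against distance from each viewpoint (horizontal axis, kb), for 2 DN (red) and 2 B (blue) libraries per viewpoint; windows within 100 kb of the viewpoint are left out and grey marks the distal Trav array. DN lines lie above B lines over the viewpoint-facing side of the array, except from Ed at 53.50 to 53.60 Mb, where the groups overlap. DN lines fall at the array's middle towards the level of the chromosome beyond it.

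Contacts were not even along the array. Its upper 400 kb, nearer the viewpoints and holding 137 of the fragments, took 78.1% to 92.4% of its signal in the DN libraries and 57.2% to 93.5% in the B libraries. From TEA the upper part had 2.54% and 3.93% of chromosome 14 in DN against 0.614% and 1.34% in B, and the lower part, with 118 fragments, had 0.711% and 0.459% in DN against 0.459% and 0.248% in B. The upper part thus separated the cell types, and in the lower part DN sample 2 lay just below B sample 1, so the groups overlapped. From INT1 the lower part had 0.417% and 0.627% in DN against 0.310% and 0.281% in B, from INT2 0.331% and 0.447% against 0.209% and 0.252%, and from Ed 0.229% and 0.163% against 0.0565% and 0.103%, all without overlap. The imbalance in summed signal was smaller without identical copies, 77 of which lay in the upper part and 5 in the lower. The upper to lower ratio fell from 3.57 and 8.58 to 1.12 and 2.98 in DN from TEA, and from 6.94 and 5.69 to 2.51 and 1.81 from INT1. In 3 B libraries it turned below 1, from 1.34 to 0.381 (TEA, sample 1), from 2.21 to 0.839 (INT1, sample 1) and from 3.64 to 0.785 (INT2, sample 2). Part of this fall follows from the removal itself, which took far more fragments from the upper part. Levels per remaining fragment were not computed, so these ratios do not show more contact per fragment in the lower part.

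**Figure D4:**
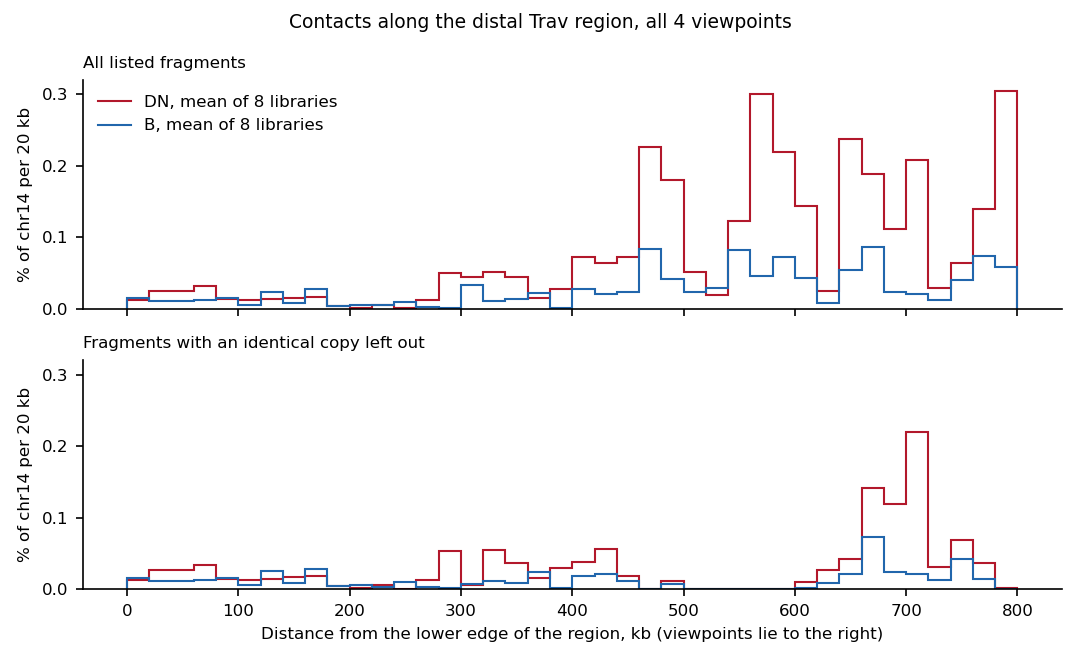
Share of chromosome 14 reads per 20 kb bin (vertical axis, percent, mean over 8 libraries of a cell type and all viewpoints) along the distal Trav array (horizontal axis, kb from its lower edge), with all fragments (top) and without fragments that have an identical copy (bottom). DN peaks of up to 0.305% per bin fill the upper part in the top panel; in the bottom panel the stretch around 500 to 600 kb is empty because all its fragments have copies, and a DN peak near 710 kb remains.

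In windows of 100 kb, INT1 gave 4 of the array's 8 windows as higher in DN by limma, where 0.739% of 1218 chromosome 14 windows were called higher and 0.575% lower. These were 53.40 to 53.50 Mb (log2 difference 1.90, adjusted p = 0.00424), 53.50 to 53.60 Mb (1.60, 0.0414), 53.60 to 53.70 Mb (2.45, 0.000167) and 53.70 to 53.80 Mb (1.91, 0.00424). The strongest, 53.60 to 53.70 Mb, had 0.949% and 1.19% in DN compared with 0.157% and 0.239% in B. With identical copies left out INT1 gave 3 windows as higher, 53.30 to 53.40 Mb (2.02, adjusted p = 0.00964), 53.60 to 53.70 Mb (2.72, 3.3e-06) and 53.70 to 53.80 Mb (1.65, 0.0420), where 0.662% of 1209 windows were called higher and 0.331% lower. The window 53.40 to 53.50 Mb did not pass then (0.96, 0.504), and 53.50 to 53.60 Mb had no fragment left. INT1 calls fell to 0 when DN sample 2, B sample 1 or B sample 2 was left out and with edgeR's quasi-likelihood test on recovered reads, in which 4 windows had an unadjusted p under 0.05.

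The average over viewpoints gave 53.60 to 53.70 Mb (log2 difference 1.86, adjusted p = 0.0415 in limma) and 53.70 to 53.80 Mb (1.87, 0.0354) as higher in DN, 2 of 8 windows, with 0.539% of 1114 called higher and 0.718% lower. None of the 8 was called with identical copies left out, where 2 had an unadjusted p under 0.05 and 0.273% of 1097 windows were called in each direction, or when either B sample was left out. From TEA, INT2 and Ed limma called 0 of 8 windows, with 4, 3 and 0 at an unadjusted p under 0.05, where 162 of 1219, 229 of 1207 and 186 of 1127 chromosome 14 windows had such a p in either direction, and edgeR on recovered reads called 0 from INT2 and Ed. In the upper 4 windows both DN values exceeded both B values from TEA, INT1 and INT2, which held over the chromosome for 4.1%, 3.78% and 5.63% of the tested windows, respectively. For Ed, where that share was 6.92%, the groups overlapped in 53.50 to 53.60 Mb, with 0.481% and 0.195% in DN against 0.325% and 0.140% in B.

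The lower windows together held less signal. The window 53.30 to 53.40 Mb had 0.231% and 0.313% in DN from TEA, with 0.219% and 0.00993% in B, and 0.207% and 0.353% in DN from INT1, with 0.0897% and 0.128% in B. From INT2 the window 53.00 to 53.10 Mb had 0.139% and 0.185% in DN, then 0.0759% and 0.126% in B, and the 3 windows above it stayed at or below 0.138% in all 4 libraries. The window 53.20 to 53.30 Mb was the emptiest from INT1, with 0.0335% and 0.0245% in DN, 0.0254% in B sample 1 and 0.000385% in B sample 2. From TEA the same window had 0.326% in DN sample 1 and 0.0579%, 0.0194% and 0.0826% in the others, and most of the first value sat on a single fragment described below.

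More of the array's fragments were captured, that is had at least 1 read, in DN than in B. Of 255 fragments TEA captured 138 and 158 in DN but 74 and 88 in B, and INT1 captured 151 and 154 in DN but 77 and 64 in B. INT2 captured 89 and 128 against 56 and 66, and Ed captured 55 and 92 against 33 and 40. DN lay above B from each viewpoint (two-sided exact permutation p = 0.333 each), whereas over all of chromosome 14 the DN libraries captured fewer fragments than the B libraries from TEA, INT2 and Ed. From TEA that total was 5529 and 4251 in DN and 6278 and 7484 in B. Brought to the lowest chromosome 14 depth of each viewpoint, the expected numbers were 138.0 and 144 in DN against 68.5 and 76.7 in B from TEA, and 55.0 and 70.7 against 28.9 and 33.6 from Ed. With identical copies left out TEA captured 69 and 84 in DN against 43 and 48 in B, and INT1 78 and 87 against 39 and 33.

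**Figure D5:**
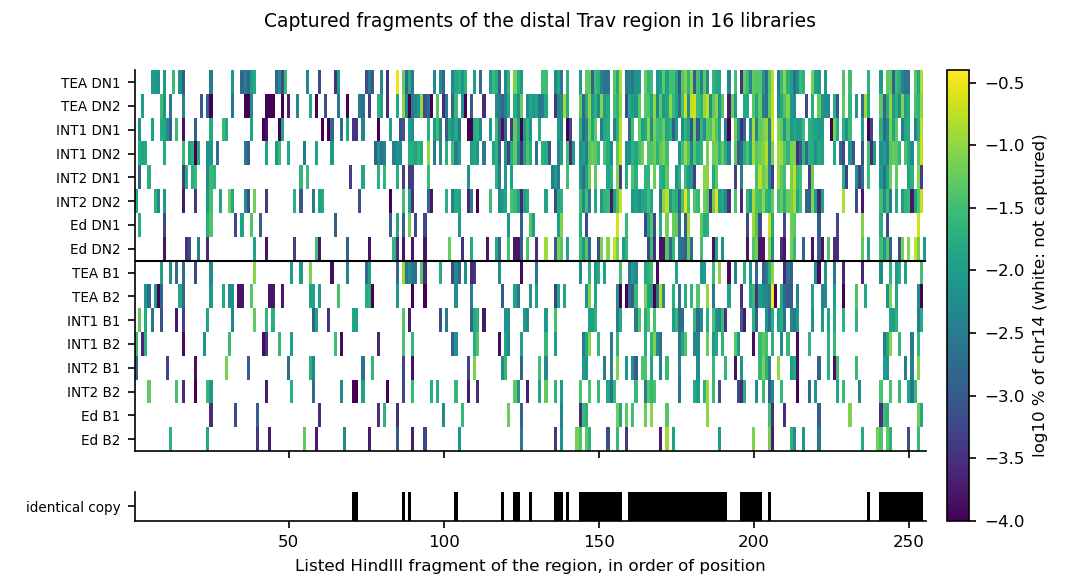
Listed fragments of the distal Trav array in order of position (horizontal axis) in each of 16 libraries (vertical axis), coloured by the log10 of their percentage of chromosome 14 reads; white marks fragments without a read, the black line parts DN from B, and the strip below marks fragments with an identical copy. Capture is denser in DN and in the upper part of the array, and most identical copies lie there.

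No fragment was captured in all 16 libraries, 2 were captured in 15 and 28 in a single library, with a median of 5 libraries per fragment. The median was 8 in the upper 400 kb and 3 in the lower. In DN libraries alone 61 fragments had reads, in B libraries alone 8, and in both 186. Over chromosome 14, 18.2% of listed fragments had reads in DN libraries alone and 38.5% in B libraries alone, against 23.9% and 3.14% in the array. All 8 DN libraries captured 19 fragments of the array (7.45%, against 0.654% over the chromosome), and no fragment was captured in all 8 B libraries, as 0.224% were over the chromosome. Fragments captured in both DN samples from TEA numbered 110, which is 79.7% of sample 1 and 69.6% of sample 2, and in both B samples 39, or 52.7% and 44.3%. From Ed the DN samples shared 38 fragments (69.1% and 41.3%) and the B samples 15 (45.5% and 37.5%). These shares also follow the number captured and the depth, whose part was not tested.

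No single fragment carried most of the array's signal. The strongest held 4.57% to 11.7% of its signal in DN libraries and 5.51% to 22.3% in B libraries, and 50% of the signal sat on 6 to 23 fragments in DN and 6 to 15 in B. The strongest and second strongest per viewpoint and cell type made up 14 fragments, of which 10 had an identical copy.

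The fragment chr14:53673357-53684030, 10.7 kb long and without an identical copy, was captured in 15 libraries. From TEA its DN shares of chromosome 14 were 0.157% and 0.184% and its B shares 0.0927% and 0.353%, the highest value being B sample 2, so the groups overlapped. From INT1 its DN shares were 0.198% and 0.0793%, against 0.0184% and 0.0186% in B. From Ed it had 0.0160% at most. Its lower neighbour, chr14:53666234-53673350, was also captured in 15 libraries and was strongest from Ed in DN, with 0.211% and 0.0927% in DN compared with 0.0341% and 0.0704% in B. It had 0.0462% and 0.0526% in DN from TEA, and 0.00365% at most from INT1. This neighbour has an identical copy at chr14:53970040-53976409 in the proximal span.

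From INT1 the strongest DN fragment was chr14:53483281-53486186, with 0.172% and 0.192% in DN, 0.0161% in B sample 1 and no read in B sample 2. Its values are those of chr14:53794241-53797144 as well, which ranked beside it. From Ed the neighbouring chr14:53479990-53483274 had 0.231% and 0.0664% in DN, with 0.0670% and 0.0269% in B, and its copy is chr14:53790956-53794234. DN and B overlapped there by a narrow margin.

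From INT2 the strongest DN fragment was chr14:53705230-53706379, which has no identical copy. It had 0.178% and 0.146% in DN, 0.0163% in B sample 1 and no read in B sample 2. All 8 DN libraries captured this fragment, and 3 of the 8 B libraries did. Next in DN came chr14:53575122-53576107, with 0.0262% and 0.289% in DN and no read in B, whose values recur at chr14:53886169-53887234 and chr14:54267655-54268698. Second from TEA in DN was chr14:53294429-53301540, where DN sample 1 had 0.306% and the other 3 libraries had 0.0146%, 0.00179% and 0.00885%. That fragment rests on 1 library.

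In B the strongest fragments were mostly copies. From Ed, chr14:53563121-53568323 had 0.0452% and 0.128% in B and 0.0692% and 0.0448% in DN. From INT2, chr14:53597281-53599245 had no read in B sample 1 and 0.119% in B sample 2, against 0.0937% and 0.0431% in DN. From TEA, chr14:53555577-53560723 likewise had no read in B sample 1 and 0.170% in B sample 2, against 0.0104% and 0.050% in DN. Both DN values lay between the B values in the INT2 and TEA examples. From INT1, chr14:53552638-53554789 had 0.0340% and 0.0853% in B and 0.0697% and 0.0619% in DN, and chr14:53467507-53469262 had 0.0117% and 0.0853% in B and 0.0699% and 0.0447% in DN. Without an identical copy was chr14:53656648-53659003, second from INT2, with 0.0809% and 0.0265% in B and 0.0588% and 0.0904% in DN. No B-chosen fragment separated the groups with B on top.

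The DN against B difference was compared between viewpoints within each sample, over 6 pairs. The estimate was largest for INT1 minus Ed, 0.51 on the log2 scale with a 95% interval of -1.46 to 2.49, and smallest for TEA minus INT2, 0.05 with an interval of -1.43 to 1.52. No pair passed in limma (adjusted p = 0.987 over the 6 pairs). The intervals are wide at 2 samples per group, and a p above the threshold does not show that the viewpoints act alike.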

How the data were processed

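The deposited files give RPM per HindIII fragment, reads scaled by the authors to the mapped total of a library; per the file headers fragments were padded by 40 bp. The submitters' processing notes name CASAVA, Bowtie and mm9 without versions. The treatment of reads matching several positions is not stated in those notes. Of the deposited files, 8 group means were not used.

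Unlisted fragments were set to 0, and each library was scaled to its chr14 RPM without the viewpoint fragment (the strongest) and 1 neighbour on each side. Windows above 0 in at least 2 libraries and over 100 kb from the viewpoint were tested with limma 3.58.1 (R 4.3.3) on log2(RPM of the chr14 total + 1), with a mean-variance trend and a threshold of 0.05. The fit was tested on simulated data. Ratios and captured fragments were tested with exact permutation tests (scipy 1.17.1). Reads were recovered from RPM steps, with at least 99.9988% of a library's values within 0.01 read of a whole number, and tested with edgeR 4.0.16 for INT1, INT2 and Ed.

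The text names all 8 windows of 100 kb, fragments captured in every library, the 2 strongest fragments per viewpoint and cell type, and uncovered stretches over 10 kb. The region, windows and lists were chosen with earlier results of these data known. Identical copies, and scaling to other autosomes, were alternatives chosen after seeing the data. Replicate numbers were not used to pair the samples: over 1114 windows of 100 kb on chromosome 14, deviations of same-numbered samples correlated at -0.013. Within the array the share of sample 2 exceeded that of sample 1 in both cell types from each viewpoint, and pairing there was not tested. No sequence is shown.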

Additional observations from a re-analysis of the deposited data

Results flagged for a closer look

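The window 53.10 to 53.20 Mb moved in opposite directions from different viewpoints. From TEA both DN values (0.0728% and 0.0265% of chromosome 14) lay below both B values (0.193% and 0.0821%), a log2 difference of -1.52, and from INT2 both DN values (0.0547% and 0.123%) lay above both B values (0.0273% and 0.0201%), a log2 difference of 1.80. Neither passed in limma (adjusted p = 0.506 and 0.339), and the difference between the viewpoints in this window was not tested. The window held 31 listed fragments, none with an identical copy.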

How the results depend on the processing

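DN exceeded B in contact of the array under each of 88 alternative fits, in 40 for the mirror ratio and in 32 for captured fragments, although calls changed. The call averaged over viewpoints (1.50 on the log2 scale) was lost with libraries scaled to all chromosomes (2.81), by TMM (2.91), to the chromosome 14 excess over background (0.47) or to other autosomes (3.01), with fragments capped (1.96) or counted once (1.45) and without the trend (1.50); leaving out a sample gave 1.30 to 1.69. Calls were gained from TEA with fragments counted once (1.37), copies left out (1.21) or copies sharing their value (1.43), from INT1 on the excess scale (0.95; 0.12 from TEA, 0.33 from INT2 and 0.48 from Ed there, uncalled), from INT2 with fragments counted once (1.60) or sharing (1.41), and from Ed with capping (1.77). Without DN sample 1 calls were also gained from TEA (adjusted p = 0.0262), INT1 (0.0145) and INT2 (0.00383), and without DN sample 2 from INT2 (0.0242). Leaving out a sample gave 1.25 to 1.82 from TEA, 1.57 to 1.91 from INT1 and 1.17 to 1.81 from INT2. Over all fits the adjusted p ran from 0.0186 to 0.747 from TEA, 0.00631 to 0.820 from INT1, 0.00383 to 0.420 from INT2 and 0.0200 to 0.805 from Ed.

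Windows called among the 8 rose from 0 to 2 (TEA, capping), to 2 (INT2, fragments counted once) and to 1 (Ed, counted once). From INT1 4 became 0 with capping, counting once, no trend or edgeR, 6 with all chromosomes, TMM or other autosomes, 5 with copies sharing their value, 3 with copies left out, the excess or a pseudocount of 100, and 0 to 4 with a sample left out. The average's 2 became 4 with all chromosomes, capping or a pseudocount of 100, and 0 with TMM, the excess, counting once, no trend or copies left out or sharing; leaving out a sample gave 0 to 5. The cause was not tested.

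With the replicate number as a block, limma gave 1.74 from INT1 (adjusted p = 0.00631, now called) and 1.50 for the average (0.00622). The block gave 5 INT1 windows in place of 4. Other region and viewpoint calls and window counts were as without the block. The ratio to the proximal span reversed from TEA with capping (0.11) or counting once (0.20) and from INT1 with counting once (0.30). Viewpoint differences reversed with capping for TEA minus INT1 (0.29) and INT1 minus INT2 (-0.026); TEA minus INT2 ran from -0.15 to 0.24 with a sample left out.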
